A study of Mus musculus with 12 samples.

Results

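The expression of 10 neutrophil genes was examined in the livers of septic mice: the calprotectin subunits S100a8 and S100a9, the granule genes Ngp, Camp, Ltf, Mmp8 and Mmp9, the surface protein gene Cd177, the secreted factor gene Retnlg and the receptor gene Csf3r. The members were chosen by symbol from the 25611 genes of the deposited count table, where each symbol occurs once. They and the further gene lists were chosen with earlier results of these data known. Counts of called genes set beside the share of all genes are therefore a description and not an independent test. Of the 10 members, 9 had enough reads to be among the 13190 genes tested, and Camp did not. All 12 mice were male C57BL6J animals of 8 to 10 weeks, with 4 mice in each of 3 groups. The sham group underwent the operation without injury to the cecum. The CLP group underwent cecal ligation puncture, which lets gut bacteria into the abdominal cavity and is a model of sepsis. The CLP+DCA group had the same surgery and received dichloroacetate (DCA), an inhibitor of pyruvate dehydrogenase kinases, at 25 mg/kg. Injections were given 24 hr after surgery and whole livers were taken 30 hr post-surgery, while what the sham and CLP mice were injected with is not given in the sources used here. No mouse received DCA without CLP, so that an effect of DCA in the absence of sepsis was not measured.

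Neutrophils are made in the bone marrow under the control of granulocyte colony-stimulating factor, and they load their granules in sequence as they mature. Azurophil granules with myeloperoxidase and serine proteases come first, specific granules with lactoferrin and cathelicidin follow, gelatinase granules come later, and calprotectin fills the cytosol. In sepsis neutrophils enter the liver sinusoids in large numbers, and immature cells are released from the marrow. In RNA of whole liver, fewer cells of a type and less RNA per cell cannot be told apart, and whether the livers were flushed of blood is not given in the sources used here.

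The depth was 24436513 to 44266819 gene reads in a mouse, and 30005989 at the median. Values are CPM, reads per 1e6 reads, on library sizes normalized by the trimmed mean of M values (TMM). CLP+DCA replicate 3 stood apart from the other mice of its group. Its median Pearson correlation of log2 CPM over the tested genes, which are not independent replicates, was 0.926 with the other CLP+DCA mice, 0.960 with the CLP mice and 0.909 with sham. The other 3 CLP+DCA mice correlated at 0.986 to 0.990 with their own group, CLP+DCA replicate 3 included among the mice compared. The edgeR comparisons of the members are therefore given with and without CLP+DCA replicate 3. The exact tests of CLP+DCA for Camp and for the ratio of Ngp to Csf3r include this mouse. Being nearer to another group was not particular to this mouse. CLP replicate 3 correlated at 0.9624 with the other CLP mice, 0.9645 with sham and 0.9696 with CLP+DCA. CLP replicate 1 was at 0.9804 with its own group and 0.9811 with CLP+DCA. With all 12 mice in the fit, 367 genes differed between CLP and sham, 5 between CLP+DCA and sham and 1 between CLP+DCA and CLP, at a Benjamini-Hochberg adjusted p under 0.05. Without CLP+DCA replicate 3 these counts were 3157, 11 and 616.

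The members lie on 6 chromosomes of the mm10 genome and all are annotated as protein coding. S100a8 and S100a9 are neighbours on chromosome 3, separated by 22595 bp, and Camp, Ngp and Ltf follow each other on chromosome 9 with gaps of 570351 and 596279 bp. RefSeq promoter sequences on GRCm38.p6, the assembly behind mm10, were matched for 9 of the 10 members, Mmp9 being the exception. The 250 bases upstream of the start are shown for 4 members that stand for the calprotectin pair, which was the most abundant, and for the specific granule genes, which had the widest range. Capitals mark every match on either strand to the letters TTNNGNAA (TTNCNNAA in reverse), a loose form of the site of C/EBP factors, and to GAGGAA, or TTCCTC on the reverse strand, the core of the PU.1 site. The sequences are written 5′ to 3′ on the strand of the gene, S100a8 from chr3:90668821-90669070 on the plus strand, S100a9 from chr3:90695722-90695971 on the minus strand, Ngp from chr9:110419558-110419807 on the plus strand and Ltf from chr9:111019042-111019291 on the plus strand.
S100a8: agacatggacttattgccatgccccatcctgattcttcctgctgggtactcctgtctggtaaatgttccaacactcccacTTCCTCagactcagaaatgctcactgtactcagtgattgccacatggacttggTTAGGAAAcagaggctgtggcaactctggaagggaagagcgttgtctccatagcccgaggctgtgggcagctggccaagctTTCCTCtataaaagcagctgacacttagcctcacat
S100a9: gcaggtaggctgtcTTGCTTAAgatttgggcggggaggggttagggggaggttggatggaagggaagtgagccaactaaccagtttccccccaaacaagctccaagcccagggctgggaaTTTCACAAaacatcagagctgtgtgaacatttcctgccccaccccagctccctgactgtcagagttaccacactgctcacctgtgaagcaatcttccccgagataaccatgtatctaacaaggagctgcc
Ngp: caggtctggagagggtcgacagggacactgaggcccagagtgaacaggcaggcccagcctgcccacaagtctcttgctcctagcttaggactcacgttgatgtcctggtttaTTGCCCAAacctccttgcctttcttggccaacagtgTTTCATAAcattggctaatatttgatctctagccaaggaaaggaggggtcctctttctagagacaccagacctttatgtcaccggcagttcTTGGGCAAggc
Ltf: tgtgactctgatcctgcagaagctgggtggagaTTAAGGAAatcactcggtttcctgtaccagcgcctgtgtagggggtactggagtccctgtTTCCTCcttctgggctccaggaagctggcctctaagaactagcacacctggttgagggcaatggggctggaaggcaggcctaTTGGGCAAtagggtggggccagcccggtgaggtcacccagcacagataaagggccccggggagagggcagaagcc
Counted from the start, S100a8 has its C/EBP-type match at -117 and PU.1-type matches at -170 and -36, and S100a9 has C/EBP-type matches at -236 and -130. Ngp has 3 C/EBP-type matches, at -138, -102 and -11, and Ltf has C/EBP-type matches at -217 and -75 and a PU.1-type match at -157. No 2 matches of the printed sequences overlap. The C/EBP-type letters occur in 7 of the 9 matched promoters and in 36.9% of 27025 mouse promoters of the same length, and the PU.1-type letters in 5 of 9 and in 23.1%. These matches are a description of the sequence and say nothing about whether a factor was bound.

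S100a8 and S100a9 encode the subunits of calprotectin, which binds calcium, zinc and manganese and makes up much of the cytosolic protein of neutrophils. S100a8 was at 1.90, 1.44, 1.20 and 1.61 CPM in sham replicates 1 to 4 and at 9.33, 13.5, 10.9 and 10.2 CPM in CLP replicates 1 to 4. In CLP+DCA replicates 1 to 4 it was at 1.21, 4.50, 17.7 and 1.37 CPM. All CLP mice thus lay above all sham mice, 2 of the CLP+DCA mice lay within the sham range, and CLP+DCA replicate 3 was the highest of the 12 mice. S100a8 was 7.15-fold higher in CLP than in sham (log2 fold change 2.84, SE 0.72), with an adjusted p of 0.0568 in the fit of all 12 mice and of 0.00162 without CLP+DCA replicate 3. Leaving out this mouse changed no CLP or sham read count, and it lowered the SE of the fold change from 0.72 to 0.37.

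S100a9 followed the same pattern at a slightly higher level. Its values were 2.42, 2.06, 2.22 and 2.57 CPM in sham, 12.7, 16.8, 13.2 and 11.8 CPM in CLP, and 1.56, 4.40, 20.5 and 1.72 CPM in CLP+DCA, each in the order of replicates 1 to 4. The CLP and sham ranges did not overlap, and CLP+DCA replicates 1 and 4 lay below the lowest sham mouse. The log2 fold change in CLP versus sham was 2.56 (SE 0.69, adjusted p = 0.0643), and without CLP+DCA replicate 3 it was 2.56 (SE 0.28, adjusted p = 0.000958). The ratio of S100a9 to S100a8 reads within a mouse was 1.27 to 1.83 in sham, 1.15 to 1.36 in CLP and 0.978 to 1.29 in CLP+DCA. The mean log2 ratio was 0.60 ± 0.224 (SD, n = 4) in sham, beside 0.31 ± 0.104 in CLP and 0.22 ± 0.178 in CLP+DCA. The ratio was lower by 0.29 on the log2 scale in CLP than in sham, a difference that a two-sided exact permutation test did not separate from the spread between mice (p = 0.0571, adjusted p = 0.114 over 6 ratio comparisons).

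**Figure D1:**
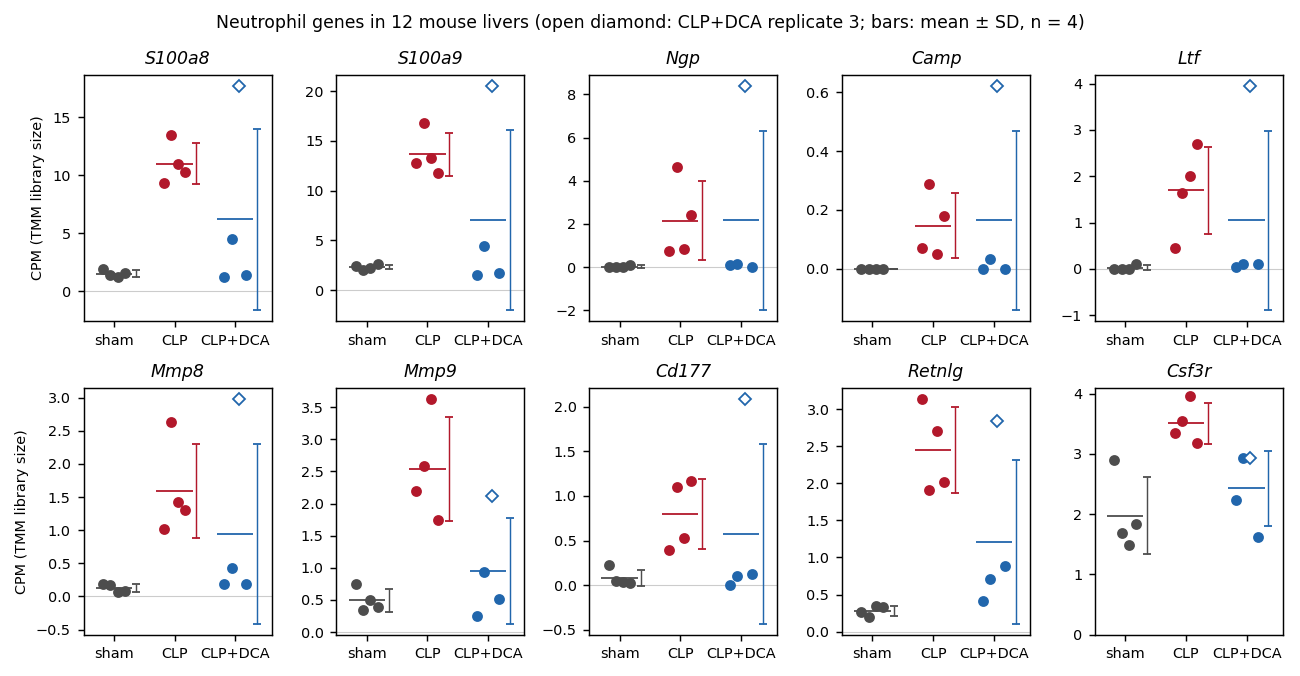
CPM of the 10 members (vertical axes, linear, 1 panel per gene) in the 4 mice of each group; points are mice, the open diamond is CLP+DCA replicate 3, horizontal lines are group means and vertical bars show the mean ± SD. CLP mice lie above all sham mice for every member, and CLP+DCA replicate 3 is the highest mouse for 7 of the 10 members, S100a8 at 17.7 CPM among them.

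Ngp, neutrophilic granule protein, is a cathelicidin relative stored in specific granules. It had no read in 3 sham mice and 4 reads in sham replicate 4, and 32, 97, 34 and 54 reads in CLP replicates 1 to 4. In CLP+DCA the reads numbered 3, 4, 310 and 1. In CPM these were 0.737, 4.64, 0.822 and 2.43 in CLP and 0.0957, 0.134, 8.39 and 0.0318 in CLP+DCA. Ngp therefore ranged 6.30-fold among the CLP mice, against 1.45-fold for S100a8, and CLP+DCA replicate 3 stood 62.4-fold above the next mouse of its group. The log2 fold change in CLP versus sham was 5.99 (SE 1.96, adjusted p = 0.0868), and 5.98 (SE 0.96, adjusted p = 0.00372) without CLP+DCA replicate 3. With only 4 sham reads behind it, the size of this change is known only roughly.

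Camp encodes the cathelicidin precursor, an antimicrobial peptide of specific granules. It had no read in any sham mouse, 3, 6, 2 and 4 reads in the CLP mice and 0, 1, 23 and 0 reads in the CLP+DCA mice. Each CLP mouse had reads and no sham mouse did, and the 24 reads in CLP+DCA came almost wholly from replicate 3. Against a floor of 3 reads over the 4 sham mice, the 15 CLP reads of Camp were 4.78-fold higher on library sizes without TMM. The counting error of the CLP reads and the spread between mice do not enter this value, so that it is not a lower bound. The log2 CPM of Camp, with a prior count of 2, was higher by 1.61 in CLP than in sham (p = 0.0286 by an exact two-sided permutation test, the lowest that 4 against 4 mice allow). Against sham and against CLP, the exact p of CLP+DCA was 0.429 and 0.571.

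Ltf encodes lactoferrin, the iron-binding protein of specific granules. Its only sham reads, 4 in all, were again in replicate 4, at 0.109 CPM. It was at 0.461, 1.63, 2.01 and 2.69 CPM in CLP replicates 1 to 4 and at 0.0319, 0.101, 3.95 and 0.0954 CPM in CLP+DCA replicates 1 to 4. CLP replicate 1 was the lowest CLP mouse for Ltf, as it was for Ngp, and 3 of the 4 CLP+DCA mice stayed below the sham maximum. The log2 fold change of Ltf in CLP versus sham was 5.67 (SE 1.67, adjusted p = 0.0731), or 5.66 (SE 0.83, adjusted p = 0.00235) without CLP+DCA replicate 3.

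Mmp8 and Mmp9 encode neutrophil collagenase of specific granules and gelatinase B of gelatinase granules. Mmp8 was at 0.186, 0.173, 0.0633 and 0.0821 CPM in sham, at 1.01, 2.63, 1.43 and 1.30 CPM in CLP and at 0.192, 0.437, 2.98 and 0.191 CPM in CLP+DCA. Mmp9 was at 0.744, 0.347, 0.507 and 0.383 CPM in sham, at 2.19, 2.59, 3.63 and 1.75 CPM in CLP and at 0.255, 0.941, 2.11 and 0.509 CPM in CLP+DCA. For Mmp9, unlike the specific granule genes, CLP+DCA replicate 3 lay inside the CLP range, and CLP replicate 3 was the highest mouse. Mmp9 rose 5.19-fold in CLP (log2 fold change 2.38, SE 0.54, adjusted p = 0.0461). The log2 fold change of Mmp8 was 3.61 (SE 0.92, adjusted p = 0.0560), and without CLP+DCA replicate 3 both passed, Mmp8 with an adjusted p of 0.00113 and Mmp9 with 0.00332.

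Cd177 encodes a surface glycoprotein of neutrophils and a carrier of membrane-bound proteinase 3. It had the fewest CLP reads of the tested members, 88 over the 4 mice, beside 10 reads over the sham mice. Its levels were 0.223, 0.0496, 0.0317 and 0.0274 CPM in sham, 0.392, 1.10, 0.532 and 1.17 CPM in CLP, and 0, 0.101, 2.08 and 0.127 CPM in CLP+DCA. The lowest CLP mouse still exceeded the highest sham mouse. The log2 fold change in CLP versus sham was 3.28 (SE 1.27, adjusted p = 0.124), and its adjusted p was 0.00859 without CLP+DCA replicate 3.

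Retnlg encodes resistin-like gamma, a secreted protein of mouse neutrophils, and Csf3r the receptor of granulocyte colony-stimulating factor. Retnlg was at 0.260, 0.198, 0.348 and 0.328 CPM in sham, at 3.13, 1.92, 2.71 and 2.02 CPM in CLP and at 0.415, 0.706, 2.84 and 0.891 CPM in CLP+DCA. It rose 8.60-fold in CLP (log2 fold change 3.10, SE 0.54, adjusted p = 0.0254), the smallest adjusted p among the members, and all CLP+DCA mice lay above all sham mice. Csf3r had the smallest difference, with 2.90, 1.68, 1.49 and 1.83 CPM in sham, 3.34, 3.54, 3.97 and 3.19 CPM in CLP, and 2.23, 2.92, 2.93 and 1.62 CPM in CLP+DCA. Its log2 fold change in CLP versus sham was 0.83 (SE 0.24, adjusted p = 0.0701), and 0.84 (SE 0.23, adjusted p = 0.0247) without CLP+DCA replicate 3. Csf3r was the only member for which CLP+DCA replicate 3 did not exceed the next mouse of its group by more than 2-fold, since replicate 2 was at the same level.

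In CLP versus sham, Mmp9 and Retnlg, 2 of the 9 tested members, passed the threshold in the fit of all 12 mice, where 1.64% of all tested genes were called higher. The other 7 had log2 fold changes of 0.83 to 5.99 and adjusted p-values of 0.0560 to 0.124. All 9 tested members were called higher without CLP+DCA replicate 3, where 12.2% of genes were. The 9 members also passed in DESeq2 and in edgeR on the 8 sham and CLP mice alone, which called 11.9% and 9.26% of genes higher, and in voom with sample quality weights, which called 13.1%. DESeq2 on all 12 mice gave S100a9 no p. It called 8 of the 9 members with an adjusted p, all but Camp (adjusted p = 0.0843), against 7.12% of genes. The calls of both Mmp9 and Retnlg were lost when CLP replicate 1, 2 or 4 or any 1 sham mouse was left out, with adjusted p-values of up to 0.121 and 0.0845, and that of Mmp9 also without CLP+DCA replicate 2. All 4 CLP mice exceeded all 4 sham mice for each of the 9 members, as for Camp, while 12.2% of tested genes had this order. Of these 9 members, Ngp, Ltf, Mmp8 and Cd177 had under 10 reads in every sham mouse, so that they entered the test through the septic mice and had to differ if they were tested. The median log2 fold change of the 9 was 3.10, beside 0.02 over all tested genes.

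**Figure D2:**
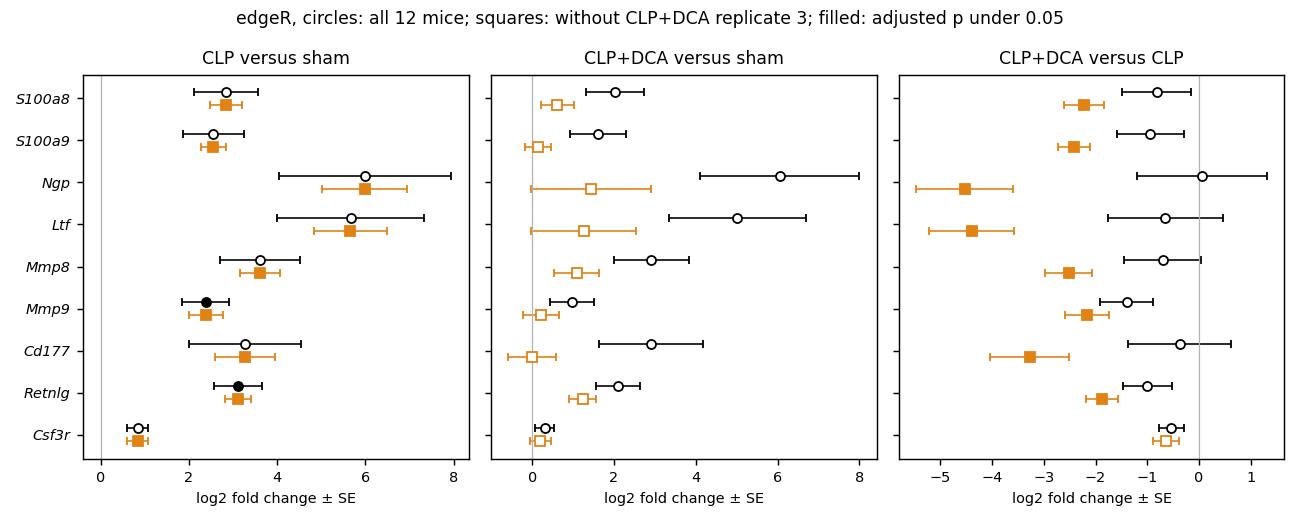
Log2 fold change ± SE (horizontal axes) of the 9 tested members in the 3 comparisons, from edgeR. Circles are the fit of all 12 mice, squares the fit without CLP+DCA replicate 3, and filled symbols have an adjusted p under 0.05; in CLP versus sham the circles and squares coincide in position while the squares have shorter bars, and in CLP+DCA versus CLP 8 squares are filled and no circle is.

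The mice given DCA after CLP were compared with the same sham mice. Against sham, edgeR called none of the 9 members, with or without CLP+DCA replicate 3, where 0.0303% and 0.0677% of tested genes were called higher. At an unadjusted p under 0.05 there were 7 members and 1714 of all 13190 genes in the fit of all 12 mice, and 1 member, Retnlg, and 1246 of 13288 genes (9.38%) without CLP+DCA replicate 3. The log2 fold change of Retnlg was 2.10 (SE 0.54, adjusted p = 0.230) with and 1.24 (SE 0.34, adjusted p = 0.270) without this mouse. DESeq2 on all 12 mice called 3 members, Ngp, Mmp8 and Retnlg, and 1.25% of genes, while voom with sample quality weights called 0, as did DESeq2 on the 8 mice compared, which gave an adjusted p to 5 members. On the 11 mice left without CLP+DCA replicate 3, which held 310 of the 318 Ngp reads of its group, DESeq2 called 0 members (Ngp, adjusted p = 0.766; Mmp8, adjusted p = 0.594; Retnlg, adjusted p = 0.119). Mmp8 and Retnlg were the members for which all 4 CLP+DCA mice exceeded all 4 sham mice, an order found for 4.78% of tested genes. For Mmp8 this was a near tie on few reads. CLP+DCA replicates 1 and 4 had 6 reads each (0.1915 and 0.1909 CPM), and sham replicates 1 and 2 had 5 and 7 reads (0.186 and 0.173 CPM).

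Between CLP+DCA and CLP, the result turned on 1 mouse. With all 12 mice, edgeR called none of the 9 members lower, and 0% of tested genes; 2 members, Mmp9 and Csf3r, had an unadjusted p under 0.05, as did 1319 of the 13190 genes. The log2 fold changes ran from -1.40 (SE 0.51) for Mmp9 to 0.06 (SE 1.26) for Ngp. DESeq2 called 0 of the 9 members with an adjusted p when fitted to all 12 mice, and 0 of 6 when fitted to 8. Without CLP+DCA replicate 3, 8 of the 9 members were lower in CLP+DCA than in CLP, where 2.63% of genes were called lower. Ngp, Ltf, Mmp8 and Cd177 had 0 to 13 reads in each sham and remaining CLP+DCA mouse, so that they entered this test through the CLP mice and had to differ if they were tested. Ngp then had a log2 fold change of -4.53 (SE 0.94, adjusted p = 0.0307), Ltf of -4.40 (SE 0.82, adjusted p = 0.0215), S100a9 of -2.41 (SE 0.31, adjusted p = 0.00779) and S100a8 of -2.22 (SE 0.39, adjusted p = 0.0199). Retnlg was at -1.87 (SE 0.30, adjusted p = 0.0158), and Csf3r, the member not called, was at -0.64 (SE 0.25, adjusted p = 0.127). Voom with sample quality weights, which keeps all 12 mice and gives less weight to those far from their group, called the same number, 8, and 5.24% of genes lower. The 3 remaining CLP+DCA mice lay below all 4 CLP mice for all 9 tested members, an order found for 10.4% of tested genes.

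CLP+DCA replicate 3 exceeded every CLP mouse for 6 of the 9 tested members, S100a8, S100a9, Ngp, Ltf, Mmp8 and Cd177, and for Camp, whereas 27.7% of tested genes had this order. Its excess over the highest CLP mouse was 1.23-fold for S100a9, 1.81-fold for Ngp and 1.79-fold for Cd177, while Mmp9 and Csf3r in this mouse were at 0.582 and 0.738 of the highest CLP mouse. Summed over the 10 members, it had 64.2 CPM, beside 33.4 to 48.6 CPM in CLP, 6.00 to 14.3 CPM in the other 3 CLP+DCA mice and 5.86 to 8.63 CPM in sham. CLP+DCA replicate 2 was the second highest of its group in summed CPM. What set CLP+DCA replicate 3 apart was not tested, and whether it carries the right label and received its injection cannot be told from the counts, which bears on every CLP+DCA value that includes it.

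The members differed in how far they varied between septic mice. The ratio of Ngp to Csf3r reads, 0.5 added to each, sets a specific granule gene against a receptor that neutrophils carry at all stages. It was 0.223, 1.31, 0.210 and 0.762 in CLP replicates 1 to 4, 0.0496, 0.0514, 2.86 and 0.0291 in CLP+DCA replicates 1 to 4, and 0.00637 to 0.0667 in sham. CLP replicates 2 and 4 and CLP+DCA replicate 3 thus had the most Ngp per Csf3r, and CLP replicates 1 and 3 had less although their S100a8 was similar. The log2 ratio was higher by 5.11 in CLP than in sham (p = 0.0286 by an exact two-sided permutation test, adjusted p = 0.114 over 6 ratio comparisons). For CLP+DCA the difference was 3.17 from sham (exact p = 0.114) and -1.95 from CLP (exact p = 0.229). The Ngp counts of 0 in sham make the size of the first 2 differences depend on the 0.5 added.

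**Figure D3:**
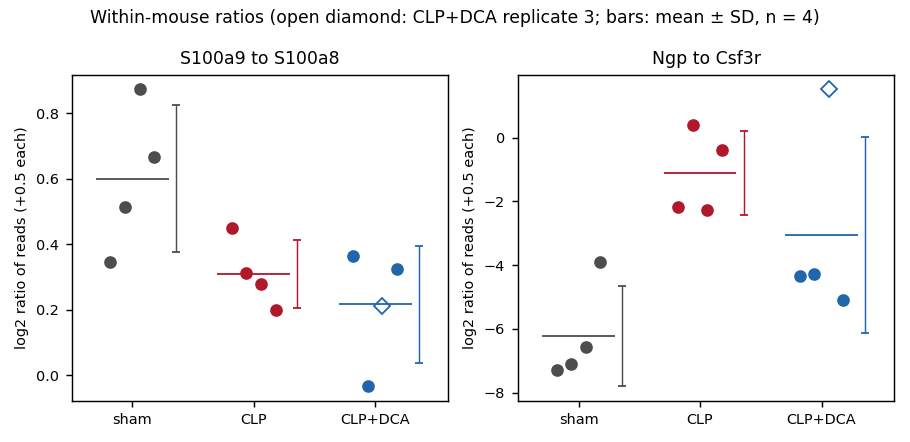
Log2 ratio of reads within each mouse (vertical axes, 0.5 added to each count) for S100a9 to S100a8 and Ngp to Csf3r; points are mice, the open diamond is CLP+DCA replicate 3, horizontal lines are means and bars show the mean ± SD. The log2 ratio of Ngp to Csf3r is at most -3.91 in sham and reaches 1.52 in CLP+DCA replicate 3, whereas that of S100a9 to S100a8 stays between -0.03 and 0.87 in all 12 mice.

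Divided by the length of the merged exons in GENCODE vM21, the levels in CLP ordered the members as S100a9 (26.1 ± 4.17 CPM per kb, SD, n = 4), S100a8 (15.8 ± 2.58), Retnlg (4.12 ± 0.976), Ngp (1.77, with a range of 0.603 to 3.80), Csf3r (0.972 ± 0.0934), Mmp9 (0.717 ± 0.227), Mmp8 (0.657 ± 0.294), Ltf (0.492 ± 0.271), Cd177 (0.281 ± 0.139) and Camp (0.193 ± 0.146). S100a9 did not overlap S100a8, with 22.5 CPM per kb in its lowest and 19.5 CPM per kb in the highest CLP mouse of S100a8, and S100a8 did not overlap Retnlg. From Retnlg downward each neighbour in this order overlapped the next. In sham the level per kb of Csf3r (0.548 ± 0.175) was above that of Retnlg (0.478 ± 0.115), with overlapping ranges, and Ngp (0.0224 ± 0.0448), Ltf (0.00793 ± 0.0159) and Camp (0 in all 4 mice) came last.

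Over the 12 mice, the gene most like S100a8 was S100a9, with a root mean square difference of 0.217 between the centred log2 CPM, followed by Mmp8 with 0.379, while the median of all tested genes was 1.47. The genes outside the 10 members closest to S100a8 were Il1r2 (0.418), Spon1 (0.424), Gpx3 (0.490), Chil3 (0.509) and Mapk13 (0.514). Il1r2, the decoy receptor of interleukin 1, was at 0.0950 to 0.164 CPM in sham, 0.760 to 1.77 CPM in CLP and 2.33 CPM in CLP+DCA replicate 3. For Ngp, Ltf was the closest member at 0.713, and 3930402G23Rik (0.342), Il1rn (0.519), Ctsj (0.546), Rtn4rl2 (0.564) and E030018B13Rik (0.642) were closest among the other genes, beside a median of 2.46. Il1rn, the interleukin 1 receptor antagonist, was at 1.87 to 5.88 CPM in sham, 20.2 to 331.1 CPM in CLP, 3.38 to 5.75 CPM in 3 CLP+DCA mice and 317.6 CPM in CLP+DCA replicate 3. These distances describe the same 12 libraries and carry no test.

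Further genes of the neutrophil granules were examined by the order in which the granules form. Of 8 listed azurophil genes 4 were tested, and edgeR called none in any comparison, with 0 at an unadjusted p under 0.05 in the fit of all 12 mice and 0 called by DESeq2 or voom. Leaving out CLP+DCA replicate 3, 1 gene had an unadjusted p under 0.05 in CLP versus sham and 1 in CLP+DCA versus CLP, beside 39.2% and 28.2% of all genes. Named after their values were seen, Mpo, myeloperoxidase, had 7 reads over the 4 sham mice, 4 over the CLP mice and 2 over the CLP+DCA mice, and Ctsg, cathepsin G, had 0, 2 and 0. Elane, neutrophil elastase, was at 0.288 ± 0.155 CPM (SD, n = 4) in sham, beside 0.367 ± 0.118 in CLP and 0.337 ± 0.194 in CLP+DCA. Prtn3, proteinase 3, was at 16.2 to 30.9 CPM in sham, 1.96 to 20.1 CPM in CLP, 1.52 CPM in CLP+DCA replicate 3 and 23.1 to 42.2 CPM in the other 3 CLP+DCA mice, with a log2 fold change of -1.33 in CLP versus sham that did not pass (SE 0.78, adjusted p = 0.268). At a total of 7 reads or fewer, a fall or a small rise in Mpo or Ctsg was not detectable at this depth.

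Of 14 tested genes among 20 other specific and gelatinase granule genes, 5 rose in CLP, where 1.64% of all tested genes were called higher, and 9 did not pass. At an unadjusted p under 0.05 there were 11 of the 14 and 28.6% of all genes (3772 of 13190). DESeq2 on 12 mice, DESeq2 on 8 mice and voom called 9, 11 and 11 in either direction, and 7.12%, 11.9% and 13.1% of genes higher. Lcn2, the siderophore-binding lipocalin that hepatocytes also secrete in the acute phase, rose by a log2 fold change of 4.09 (SE 0.76, adjusted p = 0.0294), from 423.5 to 478.4 CPM in sham to 3479 to 13490 CPM in CLP. Chil1 rose by 6.51 (SE 1.35, adjusted p = 0.0390), Olfm4 by 5.38 (SE 1.11, adjusted p = 0.0390), Slpi by 2.94 (SE 0.61, adjusted p = 0.0390) and Itgam, which encodes an integrin chain of neutrophils and macrophages, by 3.42 (SE 0.81, adjusted p = 0.0482). Olfm4 had 1 or 2 reads in each sham mouse, so that it entered the test through the septic mice. It varied in another order than Ngp, at 2.33, 0.191, 3.46 and 0.584 CPM in CLP replicates 1 to 4 and at 0.460 CPM in CLP+DCA replicate 3. Without CLP+DCA replicate 3, 9 of the 14 were called higher in CLP, where 12.2% of genes were. Of those 9, Pglyrp1, Olfm4 and Mcemp1 had under 10 reads in every sham mouse and had to differ if they were tested. In CLP+DCA versus CLP 7 were called lower, where 2.63% of genes were, among them Chil3 at -3.32 (SE 0.42, adjusted p = 0.00779) and Itgam at -2.20 (SE 0.32, adjusted p = 0.0116). Pglyrp1, also called lower, had 3 to 9 reads in each remaining CLP+DCA mouse, so that it entered this test through the CLP mice. With all 12 mice edgeR called none of the 14 in either comparison of CLP+DCA. Against sham, 6 had an unadjusted p under 0.05, and DESeq2 on 12 mice, DESeq2 on 8 mice and voom called 2, 0 and 3. Against CLP, 1 had such a p, and these tools called 0, 0 and 8.

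Among 7 tested of 13 listed ligands that draw or activate neutrophils, 3 rose in CLP in edgeR on all 12 mice, where 1.64% of all tested genes were called higher. At an unadjusted p under 0.05 there were 4, beside 28.6% of all genes. DESeq2 on 12 mice, DESeq2 on 8 mice and voom called 5, 5 and 4 in either direction, and 7.12%, 11.9% and 13.1% of genes higher. Cxcl1, a chemokine of the receptor CXCR2, rose by 2.23 (SE 0.27, adjusted p = 0.00845), Cxcl2 by 3.74 (SE 0.87, adjusted p = 0.0475) and Il1b by 1.36 (SE 0.31, adjusted p = 0.0463). Cxcl1 was at 49.7 to 70.4 CPM in sham and at 194.4 to 376.2 CPM in CLP, and at 74.7, 63.6, 134.6 and 92.1 CPM in CLP+DCA replicates 1 to 4, so that CLP+DCA replicate 3 was below the lowest CLP mouse for this ligand although it was above every CLP mouse for S100a8. In the same mouse Cxcl5 was at 2.30 CPM, above the highest CLP mouse at 1.75 CPM. Cxcl2 at 2.03 CPM and Il1b at 2.63 CPM lay within the CLP ranges of 0.822 to 4.04 CPM and 2.15 to 4.26 CPM. Against CLP, the log2 fold change of Cxcl1 in CLP+DCA was -1.65 (SE 0.26, adjusted p = 0.0967), and -1.89 (SE 0.24, adjusted p = 0.00779) without CLP+DCA replicate 3. Cxcl2, Cxcl5 and Il1b were called lower too in this fit, where 2.63% of genes were. Cxcl5 had 0 or 1 read in each sham and remaining CLP+DCA mouse, so that it entered this test through the CLP mice and had to differ if it was tested. With all 12 mice edgeR called no ligand in either comparison of CLP+DCA, with 2 and 3 at an unadjusted p under 0.05 against sham and CLP, where DESeq2 on 12 mice called 0 and 1 and voom 0 and 4. Csf3, the ligand of the receptor encoded by Csf3r and also named after its values were seen, was not among the tested genes, with 0 reads in sham, 1 to 3 reads in each CLP mouse and 11 reads in CLP+DCA replicate 3, the other CLP+DCA mice having none.

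**Figure D4:**
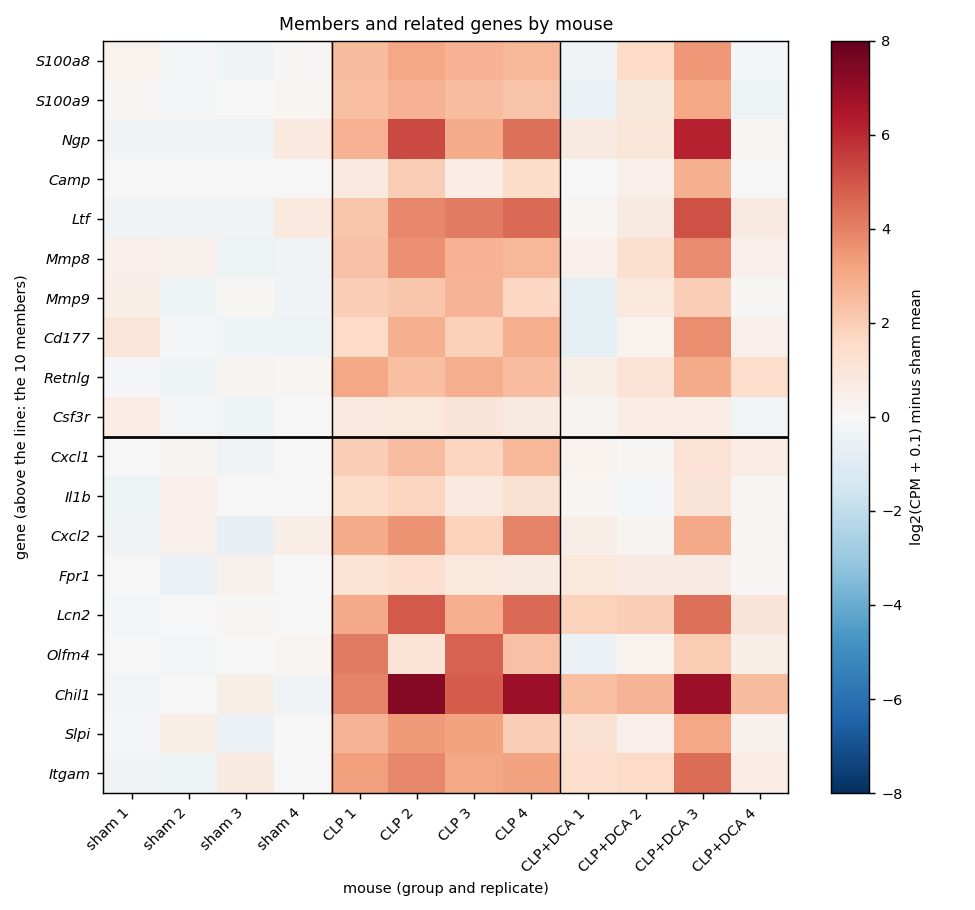
Log2(CPM + 0.1) less the sham mean (colour) of the 10 members, above the line, and of 9 related granule, receptor and ligand genes called higher in CLP, below it, in each of the 12 mice (columns). For S100a8, CLP+DCA replicates 1 and 4 at 1.21 and 1.37 CPM lie within the sham range, replicate 2 at 4.50 CPM lies above it, and replicate 3 stands highest of its group at 17.7 CPM.

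Of 15 tested of 20 listed genes for neutrophil surface proteins and receptors, 1 was called in CLP versus sham, where 1.64% of all tested genes were called higher. It was Fpr1, a receptor of formylated bacterial peptides, with a log2 fold change of 1.03 (SE 0.23, adjusted p = 0.0444). At an unadjusted p under 0.05 there were 11 of the 15, beside 28.6% of all genes. DESeq2 on 12 mice, DESeq2 on 8 mice and voom called 7, 11 and 11 in either direction, and 7.12%, 11.9% and 13.1% of all genes higher. The fold changes below 0 among the 15 were those of Ly6g, a surface antigen of mouse neutrophils, and Hcar2, 2 genes named after their values were seen. Ly6g was at 0.669 to 1.04 CPM in sham, 0.269 to 0.701 CPM in CLP and 0.271 to 0.538 CPM in CLP+DCA, and its log2 fold change of -0.78 in CLP did not pass (SE 0.32, adjusted p = 0.136), nor did that of Hcar2 (-1.05, SE 0.79, adjusted p = 0.380). Without CLP+DCA replicate 3, 9 were higher, Il1r2 by 3.05 (SE 0.41, adjusted p = 0.00166) and Clec4e by 2.78 (SE 0.52, adjusted p = 0.00607) among them, where 12.2% of all genes were called higher. In CLP+DCA versus CLP 2 were lower, Il1r2 at -2.68 and Clec4d at -3.06, where 2.63% of all genes were. Il1r2 had 2 to 7 reads and Clec4d 1 to 3 reads in each remaining CLP+DCA mouse. With under 10 reads in every sham mouse too, both entered this test through the CLP mice and had to differ if they were tested. Il1r2, Clec4d, Clec4e and Cxcr2, which are 4 of those 9, had under 10 reads in every sham mouse and had to differ if they were tested. Of 8 tested factors of granulocyte formation, Cebpd was the one that passed in edgeR on all 12 mice, with 2.17 (SE 0.40, adjusted p = 0.0283), while 6 had an unadjusted p under 0.05 and the other tools called 3, 7 and 7. Without CLP+DCA replicate 3, 4 of these factors were higher in CLP and 2 lower, where 3157 of 13288 genes were called. Among the higher were Socs3 at 1.57 (SE 0.16, adjusted p = 0.000472), Cebpd at 2.16 (SE 0.34, adjusted p = 0.00399) and Runx1 at 2.77 (SE 0.60, adjusted p = 0.0105). The lower were Cebpe at -1.16 (SE 0.25, adjusted p = 0.00983), a factor needed for specific granule genes, and Cebpa at -0.51 (SE 0.17, adjusted p = 0.0441). In CLP+DCA versus CLP this fit called Socs3 lower (-1.26, SE 0.17, adjusted p = 0.0101) and Cebpe higher (1.16, SE 0.27, adjusted p = 0.0359), and 616 of all genes. Cebpe was at 6.06 to 8.49 CPM in sham, 1.96 to 4.55 CPM in CLP, 0.975 CPM in CLP+DCA replicate 3 and 6.00 to 7.66 CPM in the other 3 CLP+DCA mice.

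Relatives of the members were not called in CLP versus sham by edgeR with all 12 mice. In this comparison 28.6% of all tested genes had an unadjusted p under 0.05. DESeq2 on 12 mice, DESeq2 on 8 mice and voom called 7.12%, 11.9% and 13.1% of genes higher, while their counts below are of either direction. Among 8 tested genes of the S100 list 0 passed in CLP versus sham, with 5 at an unadjusted p under 0.05 and 3, 4 and 5 called by DESeq2 on 12 mice, DESeq2 on 8 mice and voom. Without CLP+DCA replicate 3, S100a11 (2.83, SE 0.37, adjusted p = 0.00194), S100a6 (1.95, SE 0.36, adjusted p = 0.00590) and S100a4 (1.19, SE 0.38, adjusted p = 0.0406) were higher in CLP, and S100a13 and S100a1 were lower. In this fit 12.2% of all genes were called higher, and 3157 of 13288 in either direction. Of 4 tested genes of the receptor complex for calprotectin 0 passed and 2 had an unadjusted p under 0.05, while DESeq2 on 12 mice, DESeq2 on 8 mice and voom called 1, 2 and 2. Cd14, the coreceptor of Tlr4, was at 0.817 to 1.43 CPM in sham, 8.96 to 294.1 CPM in CLP and 822.2 CPM in CLP+DCA replicate 3, with a log2 fold change in CLP of 6.72 (SE 2.07, adjusted p = 0.0771) that passed without this mouse (adjusted p = 0.00628). Of 10 other tested metalloproteinases 0 passed, 5 had an unadjusted p under 0.05, and the other tools called 3, 5 and 5. Mmp7 had the smallest p of these, with 5.67 (SE 1.45, adjusted p = 0.0568) and 0 to 4 reads in each sham mouse, so that it entered the test through the septic mice. Of the 4 tested metalloproteinase inhibitors 0 passed and 1, Timp1, had an unadjusted p under 0.05 (3.81, SE 0.97, adjusted p = 0.0568), and the other tools called 2, 1 and 1. Retnla, the only tested relative of Retnlg, was at 4.11 (SE 0.99, adjusted p = 0.0508) in CLP versus sham, with 1 call by each of the 3 other tools. It had 3 reads over the 4 sham mice, so that it entered the test through the septic mice and had to differ if it was tested. Without CLP+DCA replicate 3, edgeR called 4 of the 10 metalloproteinases higher in CLP: Mmp7 (adjusted p = 0.00146), Mmp28 (0.0152), Mmp14 (0.0167) and Mmp2 (0.0468). It also called Timp1 (0.00180) and Retnla (0.0146), where 12.2% of genes were called higher. Mmp28, like Mmp7 and Retnla, had under 10 reads in every sham mouse and had to differ if it was tested.

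Markers of some other cells differed along with the members. Summed over 7 platelet and megakaryocyte markers, the level was 4.24 to 6.95 CPM in sham, 10.1 to 22.1 CPM in CLP, 29.4 CPM in CLP+DCA replicate 3 and 5.31 to 7.39 CPM in the other 3 CLP+DCA mice, the order found for S100a8. For 9 monocyte markers it was 1752 to 2208 CPM in sham and 2884 to 5741 CPM in CLP. In CLP+DCA it was 5545 CPM in replicate 3 and 2551 to 2678 CPM in the other mice. Nearly all of this sum came from Fn1, which hepatocytes also express. The 8 markers other than Fn1 summed to 12.1 to 18.6 CPM in sham, 21.3 to 26.4 CPM in CLP, 31.9 CPM in CLP+DCA replicate 3 and 15.5 to 26.9 CPM in the other CLP+DCA mice. Of the 12 Kupffer cell and macrophage markers the sum was 233.3 to 377.2 CPM in sham and 368.6 to 467.8 CPM in CLP. In CLP+DCA it was 300.2 CPM in replicate 3 and 295.8 to 575.6 CPM in the other mice. The 10 hepatocyte markers, which check the tissue, summed to 71520 to 90890 CPM in sham and 37070 to 53880 CPM in CLP. In CLP+DCA they summed to 33750 CPM in replicate 3 and 59290 to 67910 CPM in the other mice, which all lay above every CLP mouse. The part of these cells in the levels of the 10 members was not tested.

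Lymphocyte markers, 11 of the 12 listed being in the table, stood in the opposite order to the members. They summed to 2.48 to 5.64 CPM in sham and 0.674 to 2.152 CPM in CLP. In CLP+DCA the sum was 1.08 CPM in replicate 3 and 2.163 to 3.16 CPM in the other mice. The 8 markers of eosinophils, basophils and mast cells stayed at or below 0.435 CPM in every mouse, with Epx and Mcpt8 at 0 in all sham and CLP mice. The 8 erythroid markers in the table summed to 82.2 to 91.5 CPM in sham and 36.4 to 60.0 CPM in CLP. In CLP+DCA they summed to 24.4 CPM in replicate 3 and 65.5 to 88.2 CPM in the other mice. The 4 hemoglobin genes are listed at 0 in every mouse, so that blood left in the livers could not be gauged from them. Bile duct epithelium markers, 5 genes, summed to 34.4 to 43.7 CPM in sham and 61.9 to 96.1 CPM in CLP. They were at 213.1 CPM in CLP+DCA replicate 3 and 38.4 to 66.2 CPM in the other CLP+DCA mice. The 7 sinusoidal endothelium markers summed to 114.8 to 150.7 CPM in sham and 153.1 to 186.5 CPM in CLP, beside 163.2 CPM in CLP+DCA replicate 3 and 118.7 to 174.0 CPM in the others. The 5 cycling cell markers summed to 3.12 to 4.87 CPM in sham and 2.65 to 5.17 CPM in CLP. In CLP+DCA they were at 2.25 CPM in replicate 3 and 5.85 to 10.01 CPM in the other mice.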

How the data were processed

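Whole-liver RNA of 12 mice was sequenced (poly(A)-enriched TruSeq v2 libraries, paired ends). The authors aligned reads to mm10 with STAR 2.5, counted them with featureCounts (Subread 1.5.0-p1) and deposited raw counts for 25611 genes; the annotation and strand setting are not given in the sources used here. Counts were filtered with filterByExpr (minimum count 10), TMM-normalized and fitted in edgeR 4.0.16 (robust quasi-likelihood, R 4.3.3) with all 12 mice in a single model; 3 contrasts were tested at a Benjamini-Hochberg FDR of 0.05 over 13190 genes. The SE is the log2 fold change divided by the square root of F. Camp, below the filter, and the ratios had two-sided exact permutation tests; 3 against 4 mice cannot go below p = 0.0571. Depth was 24436513 to 44266819 reads per mouse; reads carry no molecular identifiers, so the floor of 3 reads covers counting error only. Each mouse counted as 1 biological replicate.

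Alternatives were DESeq2 1.42.0 and edgeR on subsets, other normalizations and filters, voom (limma 3.58.1), a replicate block, an FDR of 0.1 and leaving out each mouse; DESeq2 and voom on 11 mice and a block without the filter were chosen after seeing the data. The settings were tested on simulated counts. Same-numbered mice deviated together with correlations of -0.459 to 0.550, so the numbers do not pair the mice. All 10 members are described; of each further list, the genes past the FDR (at most 5), or the 2 with the smallest p, are named, and the 5 genes most like S100a8 and Ngp. The members and lists were chosen with earlier results of these data known.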

Additional observations from a re-analysis of the deposited data

Results flagged for a closer look

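In groups of 4 mice, the gap between the highest or lowest mouse and its neighbour, as a share of the whole rangewas set against Dixon's 95% critical value, which chance exceeds in about 1 in 20 groups. It was exceeded in 9 of 29 groups examined. CLP+DCA replicate 3 was the outlying mouse, as the highest of its group, for Ngp (share of the range 0.988), Ltf (0.982), Camp (0.946), Cd177 (0.939), Mmp8 (0.912) and S100a9 (0.850), all measured in the same library. In sham, replicate 4 was far from the rest for Ngp and for Ltf, each with a share of 1.0, and both times this rests on 4 reads against 0 in the other 3 mice. Sham replicate 1 was far from the rest for Cd177 (0.887), on 6 reads. The cause was not tested.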

How the results depend on the processing

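The count of called members in CLP versus sham, 2 of 9, became 8 with DESeq2 on all 12 mice, which gave S100a9 no p, and 8 with an FDR of 0.1. It became 9 with DESeq2 or edgeR on 8 mice, with voom, and with DESeq2 or voom on 11 mice, and 1 with library size alone or no filter. Leaving out a mouse gave 0 to 9 (9 without CLP+DCA replicate 3, 5 without CLP+DCA replicate 4, 1 without CLP+DCA replicate 2). The replicate block, whose numbers do not pair the mice, gave 1, also with no filter, and the block left the Ngp to Csf3r log2 ratio at 5.11 (exact p = 0.125); this ratio was 4.62 to 5.88 with a mouse left out, where p cannot pass. For CLP+DCA versus sham the count was 0 but 3 with DESeq2 on all 12 mice. For CLP+DCA versus CLP it was 0, but 8 with voom and with DESeq2 or voom on 11 mice, and 0 to 8 with a mouse left out.

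Between CLP+DCA and sham, log2 fold changes turned negative with voom and with voom on 11 mice for S100a9 (-0.14, -0.24), Mmp9 (-0.32, -0.41) and Cd177 (-1.29, -1.47; -0.045 with DESeq2 on 11 mice). Between CLP+DCA and CLP, Ngp turned from 0.06 to -3.8e-05 with DESeq2 on all 12 mice, -3.33 with voom, -4.63 and -3.44 with DESeq2 and voom on 11 mice, -2.10 with the replicate block, -2.12 with the block and no filter, and lay between -4.53 and 0.76 with a mouse left out; Cd177 lay between -3.27 and 0.024. The cause was not tested. In CLP versus sham no log2 fold change of a member reversed in any of these settings. Members with under 10 reads in sham have fold changes of low precision.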
